A study of Mus musculus with 15 samples.

Results

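The genes described here are 40 innate sensor, inflammasome and NF-kB genes of the mouse, measured in whole olfactory bulbs of 15 male mice. They comprise 12 Toll-like receptors, 7 cytosolic sensors and inflammasome genes, 8 adaptors and kinases that carry the receptors' signal, 5 NF-kB subunits, 3 inhibitors and feedback genes, and 5 cytokines. Members were the array probes bearing one of these 40 gene names, the brightest probe standing for its gene. Of the 40 genes, 35 passed a filter on dim probes, out of 23430 genes that passed it among the 34964 gene names of the array. Members had no missing values.

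The mice formed 3 groups of 5. Active CRHR1 bulbs came from C57Bl/6 mice carrying CRHR1-Cre that had received AAV-flex-(CA)CRHR1, a virus whose cargo, a constitutively active receptor for corticotropin-releasing hormone (CRH), is expressed in cells with Cre, here the granule cells positive for CRHR1. Knockout bulbs came from 129S4/SvJae mice labelled CRHR1-/- that had received AAV-flex-GFP, and their sample titles name no Cre. Cre GFP bulbs came from C57Bl/6 mice carrying CRHR1-Cre that had received AAV-flex-GFP, the group that stood in for wild type. All mice were 6 to 8 weeks old, each had received 500 nL of virus, and RNA was taken 2 weeks later, so that every group, Cre GFP included, carried an injected virus. Wherever knockout bulbs are compared, the strain, the missing receptor and any missing Cre differ together and cannot be told apart. The labels call the groups, in this order, high, low and pseudo-wild type in CRH signalling, and the comparisons ask which genes differ with that signalling.

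Toll-like receptors recognise microbial molecules and nucleic acids at the cell surface or in endosomes, and signal through the adaptors MyD88 and TRIF to kinases that release NF-kB from its inhibitors. NF-kB dimers then switch on cytokine genes, their own subunits and their own inhibitors. Inflammasomes are cytosolic assemblies in which a sensor recruits the adaptor ASC and caspases, which mature interleukin cytokines and cut gasdermin D. In the brain these genes are known mainly from microglia, the resident macrophages.

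Each mouse gave 1 single-colour array of 62976 spots. The processed signal had its 75th percentile at 663.2 to 1171.6, and the share of probes well above background was 58.7% to 66.9%. Levels are log2 signals relative to that percentile of the same array, so that a level of 0 lies at the percentile, and they are not compared between genes. A change is the difference of 2 group means on the log2 scale ± its SE, followed by the Benjamini-Hochberg adjusted p of limma over all 23430 genes, and "rose" and "fell" are used where that p was under 0.05. The arrays came from 2 slides. All active CRHR1 arrays were on slide 2 together with Cre GFP arrays 4 and 5, whereas slide 1 carried all knockout arrays together with Cre GFP arrays 1, 2 and 3. Crhr1 itself had a level of 3.73 ± 0.12 in active CRHR1, 3.16 ± 0.12 in knockout and 3.63 ± 0.18 in Cre GFP bulbs (SD, n = 5 each). Its change was 0.09 ± 0.09 in active CRHR1 (limma, adjusted p = 0.527) and -0.47 ± 0.09 in knockout bulbs (adjusted p = 0.0118). Whether its probe matches the viral receptor or lies in the deleted part of the gene is not given in the sources used here, so neither label was checked by these values. All 14 marker genes fixed for bulb neurons were measured. With 5 arrays a group, precision is set by that number.

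In active CRHR1 bulbs 16 of the 35 tested members rose and 0 fell against Cre GFP. Those that rose included Tnf, Il1b, the bacterial sensor gene Casp4, Tlr12, Tlr2 and Pycard, and the changes ran from 0.34 for Nfkb1 to 3.60 for Tnf. Over all genes 10.6% passed this test, 4.55% higher and 6.07% lower. The median change was 0.50 over the members and -0.07 over all genes, and 32 members (91.4%) had a positive change, against 35.8% of all genes. Among the 31 members past the filter in both groups 14 rose. The others that rose, Il6 and Tnf, passed the filter through active CRHR1 or knockout arrays and not through Cre GFP arrays. The arrays of the groups did not overlap for 11 members, and 11.3% of all genes had no overlap. In whole bulbs, more cells of a type and more RNA per cell cannot be told apart. The 16 rises, in their role groups, stand beside the changes in the other comparisons in the plot of all tested members.

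**Figure D1:**
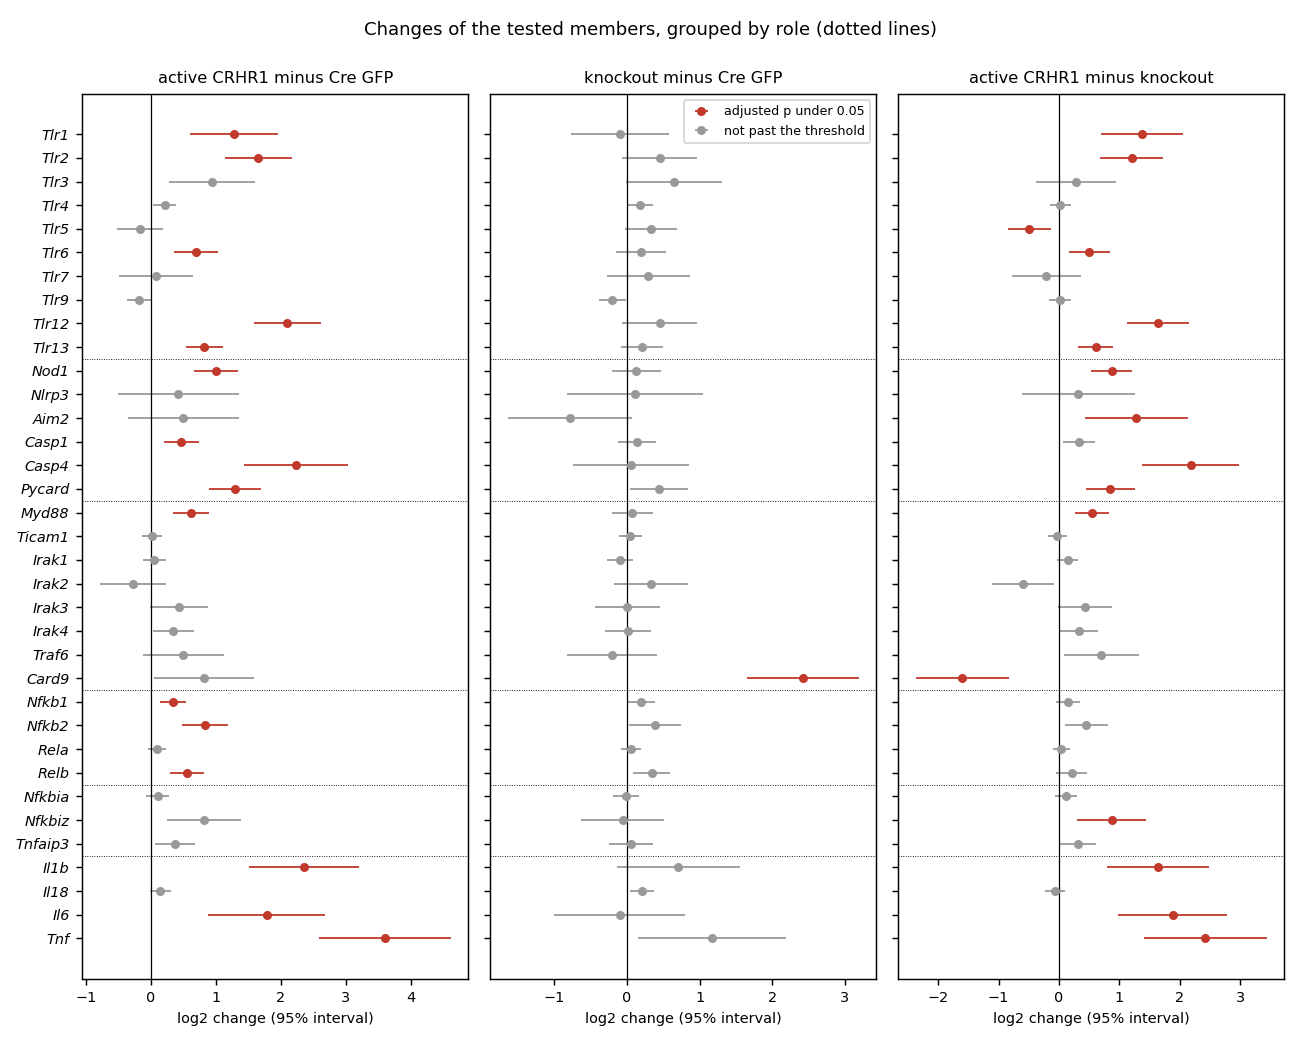
Log2 change of each of the 35 tested members (rows, grouped by role) between active CRHR1 and Cre GFP, knockout and Cre GFP, and active CRHR1 and knockout bulbs. Points are limma estimates, bars are 95% intervals and red marks an adjusted p under 0.05. Red points are frequent in both panels with active CRHR1 (16 members each), while Card9 alone is red between knockout and Cre GFP, and each panel has its own axis range.

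Some marker genes of other cells moved in active CRHR1 bulbs too. Of 8 tested T and NK cell markers 6 rose, among them the granzyme gene Gzmb by 3.42 ± 0.69 (adjusted p = 0.00708), which was well above background on 5 active CRHR1, 1 knockout and 1 Cre GFP arrays, and Cd3d by 2.80 ± 0.62 (0.0118), and of 7 tested monocyte and blood macrophage markers 3 rose, among them Plac8 by 3.30 ± 0.40 (0.000283). The T cell genes Cd3e (0.12, limma, adjusted p = 0.692) and Cd4 (-0.07, 0.687) did not pass, though well above background on all arrays. Gzmb, Cd3g and Ccr2, counted among these rises, passed the filter through active CRHR1 alone, so that their counts are no support. Markers fixed for T and NK cells that did not pass the filter were Cd8a, Cd8b1, Trbc1 and Ncr1. Of 10 microglia markers 4 rose, among them Aif1 by 1.89 ± 0.24 (adjusted p = 0.000301), Csf1r by 0.40 ± 0.09 and Tmem119 by 0.48 ± 0.12, while Fcrls fell by 0.71. The microglia genes Cx3cr1 (0.17), P2ry12 (-0.27), Sall1 (-0.11), Siglech (0.27) and Itgam (-0.06) did not pass (limma, adjusted p from 0.154). Nor did the monocyte and blood macrophage genes Chil3 (0.64), F13a1 (0.02), Mrc1 (0.23) and Lyve1 (-0.60), with adjusted p from 0.134. A fit with slide as a fixed block kept 2 of the 6 T and NK cell calls (Gzmb and Cd3d), 1 of the 3 monocyte calls (Plac8) and 2 of the 4 microglia rises, and ended those of Csf1r and Tmem119 and the fall of Fcrls. The summed linear level of the T and NK list, in units of the 75th percentile, was 3.29 to 6.97 in active CRHR1, 3.36 to 4.60 in knockout and 3.23 to 4.01 in Cre GFP bulbs. That of the monocyte list was 2.31 to 5.67, 2.08 to 3.00 and 1.92 to 2.27 in the same order, and that of the microglia list 147.9 to 176.3, 119.8 to 141.3 and 115.6 to 143.8. Genes of the highest signal weigh most in such linear sums. In active CRHR1 bulbs these were Lck, Nkg7, Cd4 and Cd3e in the T and NK list and Plac8 in the monocyte list. Of 14 bulb neuron markers 0 rose and 4 fell (Tbr1, Meis2, Rbfox3 and Calb2), of which 1, Tbr1, was kept with the slide block, the summed level being 411 to 484 in active CRHR1, 449 to 546 in knockout and 501 to 578 in Cre GFP bulbs. Of 7 astrocyte markers Gfap rose by 0.87 ± 0.21, of 4 tested B cell markers Cd79b rose by 0.88 ± 0.19, and 0 of 8 neutrophil and 0 of 7 endothelial markers passed (adjusted p from 0.212 and from 0.0616). The part of these cells in the members' changes was not tested.

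Because many members moved together, the 250 bases before the transcription start were searched on both strands for the NF-kB binding consensus (the kB motif) and for the core of the interferon-stimulated response element (ISRE, searched as GAAA, any 2 bases and GAAA). RefSeq promoters were matched for 35 of the 40 members. Of their 45 promoters 14, from 10 of the 35 genes, held a kB match, against 7.25% of all 32851 promoters, while 3 held an ISRE match, against 2.98%. The windows of Casp4 overlap each other, as do those of Irak1, so that their sites are counted more than once among the promoters. Among the 14 rising members with an entry, Tlr2, Casp4, Il6 and Nfkb2 held a kB match, Tlr6 and Myd88 an ISRE match and none both. Among the 21 other members with an entry 6 held a kB match and 1 an ISRE match, a share for kB like that of the rising members. The 4 promoters below are those of 2 rising genes with a kB match and 2 of the largest rises with no match to either motif. They are read 5′ to 3′ towards the start in build GRCm38.p6 from RefSeq, with kB matches in capitals. The Tlr2 match, 173 bases before the start (chr3:83841609-83841858, minus strand), covers overlapping matches of both strands. Nfkb2 had matches 39 and 11 bases before its start (chr19:46304487-46304736, plus strand). Tlr12 lies at chr4:128618620-128618869 and Tnf at chr17:35202008-35202257, both on the minus strand.
Tlr2: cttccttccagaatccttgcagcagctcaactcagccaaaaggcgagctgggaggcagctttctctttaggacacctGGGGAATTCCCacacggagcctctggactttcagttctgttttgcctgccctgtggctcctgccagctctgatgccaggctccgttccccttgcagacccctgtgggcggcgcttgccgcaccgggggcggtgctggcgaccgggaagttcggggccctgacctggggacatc
Nfkb2: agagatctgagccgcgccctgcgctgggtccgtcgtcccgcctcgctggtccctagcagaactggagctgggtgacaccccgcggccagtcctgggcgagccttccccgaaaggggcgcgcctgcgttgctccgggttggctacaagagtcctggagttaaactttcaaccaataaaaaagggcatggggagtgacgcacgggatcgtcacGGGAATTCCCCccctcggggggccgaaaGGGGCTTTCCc
Tlr12: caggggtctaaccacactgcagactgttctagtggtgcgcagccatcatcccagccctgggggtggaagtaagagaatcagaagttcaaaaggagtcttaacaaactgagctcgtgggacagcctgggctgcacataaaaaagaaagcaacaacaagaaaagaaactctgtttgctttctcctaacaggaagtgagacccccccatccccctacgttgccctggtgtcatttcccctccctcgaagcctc
Tnf: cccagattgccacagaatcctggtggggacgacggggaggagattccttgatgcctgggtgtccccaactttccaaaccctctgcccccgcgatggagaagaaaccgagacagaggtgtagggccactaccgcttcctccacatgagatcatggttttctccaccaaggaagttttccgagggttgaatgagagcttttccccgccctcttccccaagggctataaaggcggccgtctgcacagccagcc
A match is a description of these letters only.

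Toll-like receptors split into 5 that rose and 5 whose change did not pass. Tlr1, Tlr2, Tlr6, Tlr12 and Tlr13 rose against Cre GFP, and the median over the 10 tested receptors was 0.76. Tlr12, in mice a sensor of profilin from protozoan parasites (probe chr4:128292690-128292749 in mm9, the build of all probe positions here), had levels of 0.75, -0.80, 0.09, 0.41 and 0.49 on active CRHR1 arrays 1 to 5, -1.5, -1.59, -1.05, -1.67 and -1.47 on knockout arrays and -1.89, -1.45, -2.01, -2.20 and -1.98 on Cre GFP arrays. Every active CRHR1 array lay above every array of the other groups, and array 2 was the lowest of the 5. Tlr12 rose by 2.10 ± 0.24, a 4.28-fold difference (limma, adjusted p = 0.000214). Tlr2, the shared partner of the receptors for bacterial lipoproteins (probe chr3:83640344-83640403), had 1.20, -0.48, 0.26, 0.60 and 0.73 on active CRHR1, -0.92, -0.99, -0.40, -0.79 and -0.61 on knockout and -1.10, -0.86, -1.20, -1.41 and -1.40 on Cre GFP arrays. The active CRHR1 arrays were all above the Cre GFP arrays, and array 2 fell among the knockout arrays. The Tlr2 change was 1.65 ± 0.24 (3.15-fold, adjusted p = 0.000808).

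The partners of Tlr2, which pair with it to read lipoproteins of different acylation, rose as well. Tlr1 (probe chr5:65316115-65316174) had levels of -2.78, -3.67, -3.26, -2.52 and -2.41 on active CRHR1, -4.51, -4.23, -4.04, -5.16 and -3.58 on knockout and -4.27, -4.15, -4.25, -4.88 and -3.49 on Cre GFP arrays. Tlr6 (probe chr5:65344365-65344424) had -3.53, -4.29, -3.92, -3.78 and -3.78 on active CRHR1, -4.68, -4.16, -4.24, -4.68 and -4.04 on knockout and -4.66, -4.61, -4.78, -4.47 and -4.24 on Cre GFP arrays. In both, active CRHR1 array 2 lay just below the highest Cre GFP array and the other 4 active CRHR1 arrays above it. Tlr1 rose by 1.28 ± 0.32 (adjusted p = 0.0209) and Tlr6 by 0.69 ± 0.16 (0.0141). Tlr13, in mice an endosomal sensor of bacterial ribosomal RNA (probe chrX:103355773-103355832), had -0.34, -0.91, -0.53, -0.33 and -0.34 on active CRHR1, -1.24, -1.27, -0.81, -1.22 and -0.95 on knockout and -1.5, -0.97, -1.36, -1.36 and -1.37 on Cre GFP arrays. Its active CRHR1 arrays were all above the Cre GFP arrays, array 2 only narrowly, and it rose by 0.82 ± 0.13 (limma, adjusted p = 0.00169). When slide was added to the fit as a fixed block, Tlr2, Tlr12 and Tlr13 kept their calls and Tlr1 (1.26, adjusted p = 0.110) and Tlr6 (0.49, 0.159) did not. The Tlr1 call was also lost without active CRHR1 array 1, 4 or 5 (adjusted p up to 0.0579), and normexp background correction gave changes of 0.69 for Tlr1 and 0.27 for Tlr6, with both calls kept.

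Tlr3, Tlr4, Tlr5, Tlr7 and Tlr9 did not pass against Cre GFP. Tlr4, the receptor for bacterial lipopolysaccharide, had levels of -2.03 ± 0.12 in active CRHR1, -2.05 ± 0.08 in knockout and -2.24 ± 0.16 in Cre GFP bulbs (SD, n = 5 each), a change of 0.21 ± 0.08 (adjusted p = 0.112) with a 95% interval of 0.03 to 0.38. The double-stranded RNA receptor Tlr3 had -4.92 ± 0.30 in active CRHR1, -5.21 ± 0.22 in knockout and -5.86 ± 0.83 in Cre GFP bulbs and a change of 0.94 ± 0.31 (0.0665), and only 3 Cre GFP arrays were above background. Tlr9, the receptor for unmethylated CpG DNA, had 1.19 ± 0.12 in active CRHR1, 1.17 ± 0.16 in knockout and 1.37 ± 0.12 in Cre GFP bulbs and a change of -0.19 ± 0.09 (0.169). These intervals and p-values do not show that the genes stayed level. With array weights in limma Tlr3 (0.76, adjusted p = 0.0433), Tlr4 (0.23, 0.0380) and Irak3 (0.67, 0.0170) rose and Tlr9 fell by 0.23 (0.0403), so that 19 members rose and 1 fell, while 5631 of all genes passed, against 2489. Tlr7, a receptor for single-stranded RNA, depended on the probe, since its brightest probe gave 0.08 ± 0.27 (adjusted p = 0.868) and its second probe 0.86 (adjusted p = 0.00824). Tlr5, the flagellin receptor, had a change of -0.17 ± 0.17 (0.527), and is described further with the knockout. Tlr8 was well above background on 0 arrays of any group, and Tlr11 on 1 active CRHR1, 0 knockout and 0 Cre GFP arrays.

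Among the cytosolic sensors and inflammasome genes 4 of 6 tested rose, and their median change was 0.75. Casp4, which encodes the mouse caspase that binds lipopolysaccharide in the cytosol (probe chr9:5336658-5336717), had levels of 0.79, -0.95, -0.13, 0.40 and 0.74 on active CRHR1, -2.17, -1.90, -1.13, -2.72 and -2.14 on knockout and -1.51, -2.09, -1.55, -2.19 and -2.98 on Cre GFP arrays. The active CRHR1 arrays were all above those of the other groups. Casp4 rose by 2.23 ± 0.37, or 4.71-fold (limma, adjusted p = 0.00197), and its second probe, which overlaps the first, gave 2.24. Pycard, the gene of the adaptor ASC (probe chr7:135136241-135136300), had 2.36, 1.29, 1.94, 2.35 and 2.16 on active CRHR1, 0.89, 0.96, 1.27, 1.21 and 1.53 on knockout and 0.79, 0.98, 0.56, 0.51 and 0.79 on Cre GFP arrays. Its active CRHR1 arrays were all above the Cre GFP arrays, and array 2 lay within the knockout range. Pycard rose by 1.29 ± 0.19 (2.45-fold, adjusted p = 0.000777).

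Nod1, a cytosolic sensor of bacterial peptidoglycan fragments (probe chr6:54874007-54874066), had levels of 1.66, 0.64, 0.98, 1.19 and 1.45 on active CRHR1, 0.13, 0.09, 0.53, 0.32 and 0.51 on knockout and 0.25, 0.21, 0.24, 0.11 and 0.14 on Cre GFP arrays. No active CRHR1 array overlapped the other groups, and the Cre GFP arrays lay close together. Nod1 rose by 1.00 ± 0.16 (limma, adjusted p = 0.00129). Casp1, the protease that matures the interleukins of inflammasomes (probe chr9:5307206-5307265), had 2.09, 1.85, 2.37, 1.99 and 1.90 on active CRHR1, 1.74, 1.72, 1.77, 1.70 and 1.64 on knockout and 1.56, 1.28, 2.02, 1.40 and 1.62 on Cre GFP arrays. Cre GFP array 3 lay among the active CRHR1 arrays. Casp1 rose by 0.47 ± 0.12 (adjusted p = 0.0301), a call lost with the slide block (0.53, adjusted p = 0.0894), with the authors' series values (0.37), without the filter on dim probes, in a fit of only these groups, and without Cre GFP array 2, 4 or 5 or active CRHR1 array 1, 3 or 4 (adjusted p up to 0.0743). Casp4, Pycard and Nod1 kept their calls with the block. The sensor genes Nlrp3 (0.42 ± 0.44, adjusted p = 0.545) and Aim2 (0.50 ± 0.40, 0.422) did not pass, Nlrp3 being well above background on 5 active CRHR1, 2 knockout and 2 Cre GFP arrays. Nod2, a sensor of muramyl dipeptide, was above background on 3 active CRHR1, 0 knockout and 0 Cre GFP arrays and was not tested.

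Of the 8 adaptors and kinases 1 rose against Cre GFP, and their median change was 0.39. Myd88, the adaptor of most Toll-like receptors (probe chr9:119245322-119245381), had levels of 0.95, 0.05, 0.32, 0.47 and 0.49 on active CRHR1, -0.12, -0.31, 0.03, -0.11 and 0.08 on knockout and -0.15, -0.20, -0.07, -0.18 and -0.22 on Cre GFP arrays. The active CRHR1 arrays were all above the Cre GFP arrays, and array 2 fell among the knockout arrays. Myd88 rose by 0.62 ± 0.13 (limma, adjusted p = 0.00819). The slide block ended this call (0.66, adjusted p = 0.0524), as did the authors' series values (0.53). Ticam1, the gene of the other main adaptor, TRIF, had -0.37 ± 0.11 in active CRHR1, -0.34 ± 0.11 in knockout and -0.38 ± 0.11 in Cre GFP bulbs, and its change of 0.02 ± 0.07 had a 95% interval of -0.14 to 0.18. The kinase gene Irak1 had 1.98 ± 0.10 in active CRHR1, 1.83 ± 0.08 in knockout and 1.93 ± 0.17 in Cre GFP bulbs and a change of 0.05 ± 0.08, with an interval of -0.12 to 0.23. The further kinase genes gave changes of -0.27 ± 0.24 for Irak2, 0.44 ± 0.21 for the inhibitory Irak3 and 0.35 ± 0.15 for Irak4 (adjusted p = 0.465, 0.182 and 0.137). Traf6, the ubiquitin ligase downstream of these kinases, gave 0.50 ± 0.29 (0.266), and its other probes -0.07 and 0.61.

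Of the NF-kB subunits, 3 of 4 tested rose, by 1.26-fold to 1.79-fold, with a median of 0.44. Nfkb2, the precursor of the noncanonical pathway (probe chr19:46386146-46386285), had levels of -0.14, -1.36, -0.68, -0.43 and -0.45 on active CRHR1, -1.06, -1.08, -0.87, -1.20 and -1.11 on knockout and -1.46, -1.48, -1.46, -1.49 and -1.35 on Cre GFP arrays. Active CRHR1 array 2 lay just below Cre GFP array 5, and the other 4 active CRHR1 arrays were above all arrays of both other groups. Nfkb2 rose by 0.84 ± 0.17 (limma, adjusted p = 0.00599). Its partner Relb (probe chr7:20191722-20191781) had 0.74, 0.06, 0.42, 0.51 and 0.58 on active CRHR1, 0.18, 0.11, 0.38, 0.02 and 0.55 on knockout and -0.04, -0.21, -0.06, -0.06 and -0.09 on Cre GFP arrays. The Cre GFP arrays were below all others, and the active CRHR1 and knockout arrays overlapped. Relb rose by 0.55 ± 0.12 (adjusted p = 0.0111), but its 2 other probes gave 0.41 and 0.08, with adjusted p = 0.0629 and 0.678, and the authors' series values gave 0.45 (adjusted p = 0.0769).

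Nfkb1, the canonical p50 precursor (probe chr3:135254550-135254609), had levels of -1.01, -1.43, -1.23, -1.32 and -1.19 on active CRHR1, -1.29, -1.29, -1.27, -1.47 and -1.58 on knockout and -1.38, -1.76, -1.53, -1.60 and -1.59 on Cre GFP arrays. Active CRHR1 array 2 lay below Cre GFP array 1, and the other 4 active CRHR1 arrays were above all Cre GFP arrays. Nfkb1 rose by 0.34 ± 0.09 (limma, adjusted p = 0.0322). The call was lost in 7 of the 15 omissions of 1 array, those of active CRHR1 arrays 1, 3 and 5 and Cre GFP arrays 2 to 5 (adjusted p up to 0.0884), with the authors' series values (0.24) and without the filter on dim probes. With slide as a block the changes were 0.81 for Nfkb2, 0.54 for Relb and 0.36 for Nfkb1, and all 3 calls were lost (adjusted p = 0.0605, 0.0818 and 0.113). Rela, the main activating subunit, had 3.85 ± 0.04 in active CRHR1, 3.81 ± 0.14 in knockout and 3.76 ± 0.06 in Cre GFP bulbs and a change of 0.09 ± 0.06 with an interval of -0.05 to 0.23. Rel was well above background on 0 arrays.

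The 3 inhibitors and feedback genes did not pass against Cre GFP in the main fit. Nfkbia, the gene of the classical inhibitor that holds NF-kB in the cytoplasm, had 3.30 ± 0.14 in active CRHR1, 3.18 ± 0.14 in knockout and 3.20 ± 0.09 in Cre GFP bulbs, a change of 0.10 ± 0.08 (interval -0.07 to 0.28, adjusted p = 0.419). Tnfaip3, which encodes the ubiquitin-editing enzyme A20, gave 0.37 ± 0.14 (0.105), and passed without active CRHR1 array 2 (0.47, 0.0357). Nfkbiz, a nuclear cofactor of NF-kB at secondary response genes (probe chr16:55817859-55817918), had levels of -2.43, -2.81, -3.08, -2.97 and -2.42 on active CRHR1, -3.71, -3.05, -3.18, -4.20 and -3.93 on knockout and -3.08, -3.93, -3.22, -3.23 and -4.30 on Cre GFP arrays. The active CRHR1 arrays were all above the Cre GFP arrays, array 3 by less than the printed digits show, and the change of 0.81 ± 0.27 missed the threshold (limma, adjusted p = 0.0659). Nfkbiz passed with normexp correction (0.46, adjusted p = 0.0441) and without Cre GFP array 1 (0.93, 0.0396).

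Among the cytokine genes 3 of 4 tested rose, with a median change of 2.06, the highest of the 6 role groups. Of these, Il6 and Tnf did not pass the filter through Cre GFP arrays, so that neither this count nor this rank is support. Tnf, the gene of tumour necrosis factor (probe chr17:35336795-35336854), had levels of -1.67, -4.10, -2.79, -2.68 and -2.32 on active CRHR1, -5.50, -5.19, -4.38, -5.63 and -4.98 on knockout and -6.40, -5.49, -5.28, -6.69 and -7.68 on Cre GFP arrays. The active CRHR1 arrays were all above both other groups, and only 2 Cre GFP arrays were well above background. Tnf rose by 3.60 ± 0.47 (limma, adjusted p = 0.000448), and by 1.40 with normexp background correction. Since 3 of the 5 Cre GFP arrays held signals not well above background, the size of this change is not well set. Il1b, which inflammasome caspases mature (probe chr2:129190347-129190406), had -2.05, -4.60, -3.81, -2.42 and -2.88 on active CRHR1, -4.95, -5.30, -4.47, -4.74 and -4.51 on knockout and -5.38, -5.29, -5.33, -5.27 and -6.23 on Cre GFP arrays. The active CRHR1 arrays were all above the Cre GFP arrays and spread widely among themselves, array 2 lying within the knockout range. Il1b rose by 2.35 ± 0.40 (5.10-fold, adjusted p = 0.00209), or by 1.04 with normexp correction.

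Il6 (probe chr5:30346367-30346426), a cytokine of the acute phase response, had levels of -4.37, -6.01, -5.63, -5.49 and -4.87 on active CRHR1, -7.12, -7.67, -7.31, -7.40 and -6.26 on knockout and -7.37, -7.35, -5.54, -7.03 and -7.98 on Cre GFP arrays. It was well above background on 4 active CRHR1, 0 knockout and 1 Cre GFP arrays, and Cre GFP array 3 lay among the active CRHR1 arrays. It passed the filter through active CRHR1 alone, so that its count among the rises is no support and the size of its change is not well set. Il6 rose by 1.78 ± 0.42 (limma, adjusted p = 0.0167), a call lost without active CRHR1 array 1 (adjusted p = 0.0505) and with normexp correction (0.28, adjusted p = 0.0744). All 3 cytokine calls held with slide as a block. Il18, the other inflammasome cytokine, had 1.43 ± 0.11 in active CRHR1, 1.5 ± 0.13 in knockout and 1.29 ± 0.09 in Cre GFP bulbs, a change of 0.14 ± 0.08 with an interval of -0.02 to 0.31. Il1a was above background on 2 active CRHR1, 0 knockout and 0 Cre GFP arrays and was not tested. The levels of all 16 rising members on each array are drawn in the panels by gene.

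**Figure D2:**
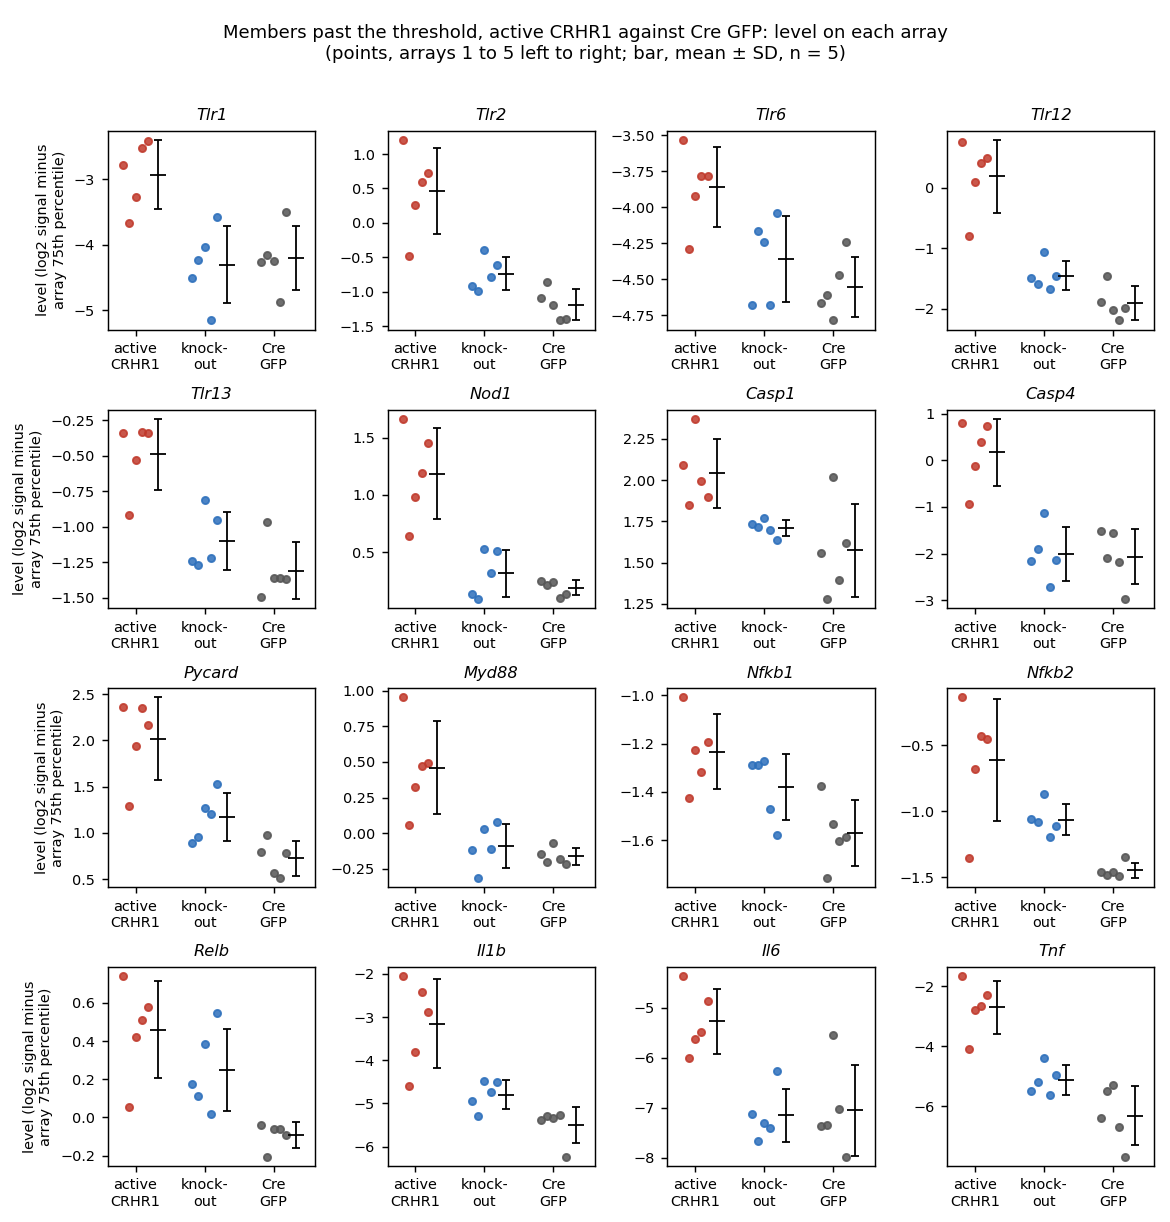
Level of the 16 members that rose in active CRHR1 against Cre GFP bulbs, 1 panel per gene with its own axis (log2 signal minus the 75th percentile of the array). Points are arrays, left to right 1 to 5, and bars are mean ± SD (n = 5). Active CRHR1 points stand above Cre GFP points without overlap for Tlr2, Tlr12, Tlr13, Nod1, Casp4, Pycard, Myd88, Relb, Il1b and Tnf.

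The active CRHR1 bulbs differed among themselves in the same way for nearly every rising member. Array 2 was the lowest of its group for 16 of the 16, on average 0.71 below the group mean, and array 1 was the highest for 13, on average 0.50 above it. The median SD of the 16 was 0.45 in active CRHR1, 0.24 in knockout and 0.22 in Cre GFP bulbs, while over all genes it was 0.14, 0.18 and 0.16. Array 2 also had the lowest and array 1 the highest summed level of the T and NK markers (3.29 and 6.97) and of the monocyte markers (2.31 and 5.67) within the group. The microglia sums were 157.8 on array 2 and 158.2 on array 1, and did not follow this order. Array 2 was also the lowest of the group for the B cell (0.33) and endothelial (50.55) sums, and the highest for bulb neurons (483.5). The neutrophil sum was lowest on array 1 (2.41) and the astrocyte sum on array 3 (99.4). The part of any of these cells in the spread was not tested. Without array 2, 17 members and 2489 of all genes were past the threshold, and without array 1, 12 members and 1283 of all genes. With all arrays these counts were 16 and 2489.

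**Figure D3:**
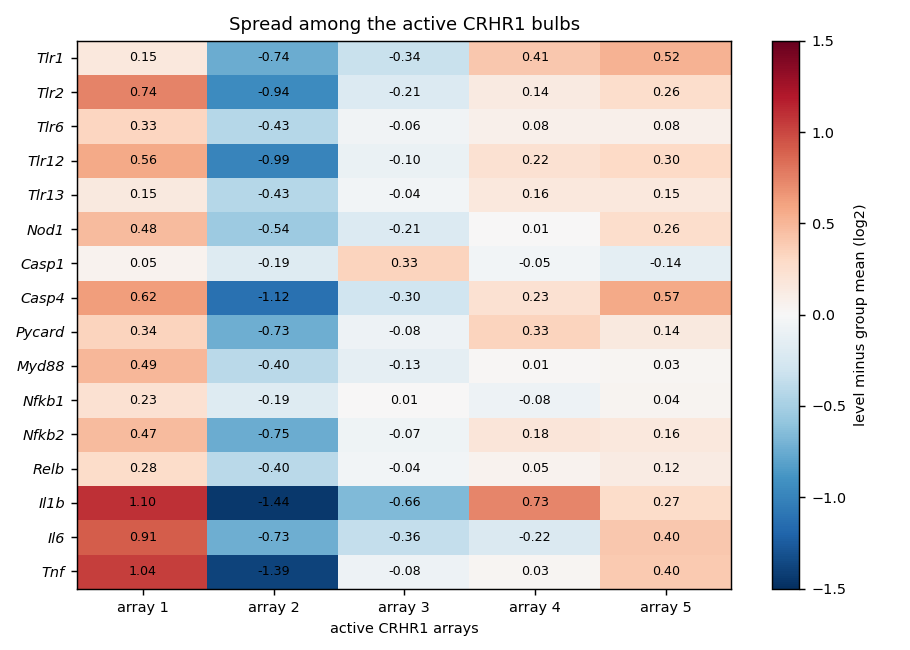
Level of each of the 16 rising members (rows) on the 5 active CRHR1 arrays (columns), as log2 difference from the mean of the group, printed in each cell and coloured blue below and red above it. The column of array 2 is blue throughout, from -0.19 for Casp1 and Nfkb1 to -1.44 for Il1b.

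Slides bear on this comparison because active CRHR1 arrays lay on slide 2 alone. With slide as a fixed block, 9 of the 16 calls were kept (Tlr2, Tlr12, Tlr13, Nod1, Casp4, Pycard, Il1b, Il6 and Tnf) and 4.52% of all genes passed. Within slide 2, with 5 active CRHR1 and 2 Cre GFP arrays, 3 calls were kept, Tlr12 (2.28, adjusted p = 0.0455), Casp4 (2.75, 0.0491) and Tnf (4.47, 0.0341), and 1.77% of all genes passed. All 16 changes kept their sign there, each with an unadjusted p under 0.05 in limma, and adjusted p ran up to 0.150. Because the 16 were chosen with these same arrays, the kept signs and unadjusted p are no separate support. For 12 of the 16 the mean of the Cre GFP arrays was lower on slide 2 than on slide 1. The median of the 16 changes was 1.16 within slide 2 and 1.14 over all arrays. With slide as a random block all 16 calls were kept, and 3041 of all genes passed, against 2489 in the main fit. The correlation within slides was estimated at -0.058 there, so this fit took out no slide difference and cannot test its part.

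**Figure D4:**
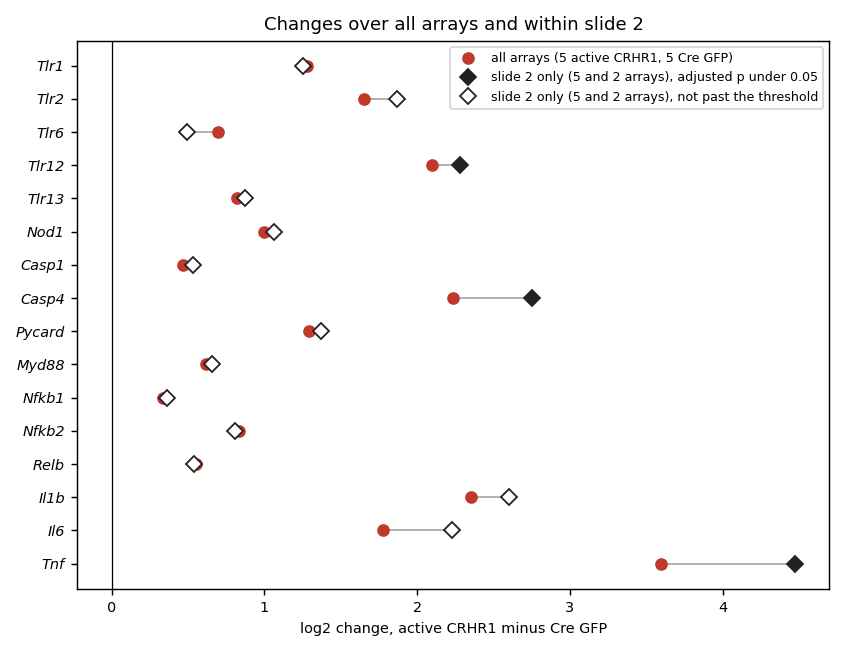
Log2 change of the 16 rising members between active CRHR1 and Cre GFP bulbs, over all arrays (circles) and within slide 2 (diamonds, filled where the adjusted p was under 0.05). The diamonds lie near the circles for most genes and further right for Tlr2, Tlr12, Casp4, Il1b, Il6 and Tnf, and Tlr6 is lower within the slide.

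In knockout bulbs 1 of the 35 members passed against Cre GFP, and 0 fell. Over all genes 4.07% passed, 2.42% higher and 1.65% lower. Card9, the adaptor through which fungal lectin receptors reach NF-kB (probe chr2:26208462-26208521), had levels of -4.98, -3.65, -3.66, -5.42 and -4.89 on active CRHR1, -2.95, -2.33, -3.15, -2.43 and -3.74 on knockout and -5.36, -4.76, -5.28, -5.69 and -5.62 on Cre GFP arrays. The knockout arrays were all above the Cre GFP arrays, and knockout array 5 fell just below active CRHR1 arrays 2 and 3. Card9 rose by 2.42 ± 0.36 in knockout bulbs, a 5.36-fold difference (limma, adjusted p = 0.00271). The call held with slide as a block and within slide 1, where it was 2.21 (adjusted p = 0.0183 and 0.0306, with 1.90% and 0.679% of all genes past the threshold), and in each of the 15 omissions of 1 array (adjusted p up to 0.00949), while normexp correction gave 1.28. The groups differ in strain, so that a change in RNA level and a strain difference in how the RNA binds the probe cannot be told apart. In active CRHR1 bulbs the Card9 change was 0.82 ± 0.36 (adjusted p = 0.147).

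The other tested members did not pass in the knockout. The median over the 35 was 0.14, against 0.01 over all genes, 27 changes (77.1%) were positive, against 51.6% of all genes, and 8 had an unadjusted p under 0.05, as had 20.8% of all genes. The groups did not overlap for Card9, Nfkb2 and Relb, and 5.95% of all genes had no overlap. Nfkb2 gave 0.38 ± 0.17 (limma, adjusted p = 0.202) and Relb 0.34 ± 0.12 (0.126), and Nfkb2 passed in a fit of only these groups (adjusted p = 0.0250) and without active CRHR1 array 2 (0.0321). Tnf gave 1.17 ± 0.47 (0.175), Pycard 0.44 ± 0.19 (0.196) and Il18 0.21 ± 0.08 (0.140). Tlr3 gave 0.65 ± 0.31 (0.248) and 1.13 with slide as a block (adjusted p = 0.0437). Neutrophil markers had a summed level of 3.22 to 15.2 in knockout, 2.41 to 5.04 in active CRHR1 and 2.30 to 4.38 in Cre GFP bulbs, with 0 of 8 past the threshold in limma (adjusted p from 0.0570). In knockout bulbs the B cell gene Cd79b (0.95, limma, adjusted p = 0.0128) and the endothelial gene Slco1c1 (0.37, 0.0123) rose against Cre GFP. Of astrocyte genes Aqp4 (0.34, 0.0351) and Slc1a3 (0.37, 0.0196) rose and Gfap (-0.80, 0.0466) fell, as did the neuron gene Snap25 (-0.98, 0.0128). Of the microglia, monocyte, and T and NK markers 0 passed there. The part of any of these cells in the knockout values was not tested.

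Between active CRHR1 and knockout bulbs 14 members were higher in active CRHR1 and 2 lower, with a median change of 0.34 against -0.08 over all genes, of which 28.1% passed (9.70% higher and 18.4% lower). This comparison uses the same active CRHR1 arrays as the first and spans both strains and both slides. Among the 32 members past the filter in both groups 14 passed the threshold. The others called, Il6 and Aim2, did not pass the filter through knockout arrays, so that their counts are no support. Aim2 was well above background on 5 active CRHR1, 3 knockout and 5 Cre GFP arrays. Tnf had a change of 2.42 ± 0.47, Casp4 2.18 ± 0.37, Tlr12 1.64 ± 0.24, Il1b 1.64 ± 0.40, Tlr1 1.37 ± 0.32 and Tlr2 1.20 ± 0.24 (adjusted p = 0.00342, 0.00159, 0.000605, 0.0102, 0.00803 and 0.00391). Nod1, Pycard, Tlr13, Myd88 and Tlr6 were higher by 0.50 to 0.87, and Il6 by at least 1.41-fold, its knockout arrays not being well above background (adjusted p = 0.00694). Casp1 (0.33), Nfkb1 (0.15), Nfkb2 (0.45) and Relb (0.21) did not pass (adjusted p = 0.0624, 0.237, 0.0541 and 0.192). Without active CRHR1 array 2 Nfkb2 (0.64, adjusted p = 0.000746) and Relb (0.31, 0.0454) passed. Casp1 passed with quantile normalization (0.39, adjusted p = 0.0366), and several other settings also passed Casp1 or Nfkb2 (adjusted p from 0.0168).

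Tlr5, Aim2 and Nfkbiz passed in this comparison and in neither of the others. Card9 was lower in active CRHR1 than in knockout bulbs (-1.60 ± 0.36, adjusted p = 0.00715). Tlr5 (probe chr1:184906031-184906090) had levels of -5.91, -5.40, -5.31, -5.23 and -5.83 on active CRHR1, -5.04, -4.61, -5.18, -5.37 and -5.01 on knockout and -5.15, -5.50, -5.66, -5.42 and -5.10 on Cre GFP arrays, which overlapped, and a change of -0.49 ± 0.17 (0.0411). Aim2, a sensor of cytosolic DNA (probe chr1:175396036-175396095), had -4.34, -4.81, -4.66, -4.32 and -3.81 on active CRHR1, -7.14, -4.89, -4.91, -6.45 and -4.96 on knockout and -4.55, -4.49, -4.97, -5.15 and -5.27 on Cre GFP arrays. Knockout arrays 1 and 4 were far below the rest, and the Aim2 change was 1.28 ± 0.40 (0.0302), or 0.08 with normexp correction. Nfkbiz was higher by 0.87 ± 0.27 (0.0285). With slide as a fixed block only Tlr12 (1.95), Casp4 (3.05) and Tnf (3.88) kept their calls (adjusted p = 0.0293, 0.0233 and 0.0150), and 3.39% of all genes passed. Calls of Tlr5, Tlr6, Aim2 and Nfkbiz were lost in 7, 5, 3 and 4 of the 15 omissions (adjusted p up to 0.102). Normexp correction ended the calls of Tlr6 (0.10), Aim2 and Il6 (0.18), and gave 0.60 for Tlr1, -0.31 for Tlr5, -0.97 for Card9, 0.41 for Nfkbiz, 0.71 for Il1b and 1.03 for Tnf with the calls kept. Tlr6 also missed the threshold with quantile normalization (0.48) and the authors' series values (0.46), and Tlr5 without the filter on dim probes and with an intensity trend. In a fit of only these groups Tlr5, Tlr6 and Aim2 missed it. Single omissions of active CRHR1 arrays 1 and 5 ended all 4, those of active CRHR1 array 2, knockout array 2 and Cre GFP array 4 ended Tlr5, that of active CRHR1 array 4 ended Tlr6, that of knockout array 1 ended Tlr5 and Tlr6, that of knockout array 4 ended Tlr6, Aim2 and Nfkbiz, and that of knockout array 5 ended Tlr5 and Nfkbiz.

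Other genes of the same pathways rose in part. Over all genes 4.55% rose and 6.07% fell in active CRHR1 against Cre GFP bulbs. Of 18 tested innate sensor genes outside the members 12 rose against Cre GFP and 0 fell, with a median of 1.34 against -0.07 over all genes, while 0 passed in knockout bulbs. Nlrc5, a transactivator of MHC class I genes, rose by 4.26 ± 0.44 (limma, adjusted p = 0.000171), Zbp1, a sensor of Z-form nucleic acid, by 4.23 ± 0.61 (0.000777), the RNA sensor gene Dhx58 by 1.74 ± 0.27 (0.00101) and Tmem173, the gene of the DNA pathway adaptor STING, by 1.20 ± 0.16 (0.000416). The slide block kept 9 of the 12 calls, these 4 among them. Among the 12, Nlrp1b passed the filter through active CRHR1 alone, with 4 active CRHR1, 0 knockout and 1 Cre GFP arrays well above background. Mefv did not pass it through Cre GFP arrays, so that the counts of Nlrp1b and Mefv among the rises are no support.

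Genes that help the Toll-like receptors rose in 4 of 9 cases. Ly86, the secreted partner of the receptor-like Cd180, rose by 1.95 ± 0.19 (limma, adjusted p = 0.000102) and Unc93b1, which carries endosomal receptors out of the endoplasmic reticulum, by 1.01 ± 0.14 (0.000745). Cd36, a scavenger receptor that assists Tlr2, rose by 1.49 ± 0.25 (0.00194), and Cd180 also passed (0.00442), being well above background on 4 active CRHR1, 1 knockout and 0 Cre GFP arrays. Cd14 (0.20) and Ly96 (0.29), the partners of Tlr4, did not pass (adjusted p = 0.264 and 0.0512) and were chosen for mention after their values were seen. Of 15 tested inflammasome effectors and IL-1 family genes 5 rose and 0 fell, among them Ifi204, an interferon-induced DNA sensor, by 3.39 ± 0.47 (0.000584), Il18bp, the secreted inhibitor of IL-18, by 1.78 ± 0.27 (0.000946), Gsdmd, the pore former cut by inflammatory caspases, by 1.38 ± 0.21 (0.000933) and Casp8 by 0.85 ± 0.15 (0.00283). Il18r1 also rose, with 4 active CRHR1, 3 knockout and 1 Cre GFP arrays well above background. Both Cd180 and Il18r1 passed the filter through active CRHR1 alone, so that their counts among the rises are no support.

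Adaptors, kinases and inhibitors outside the members mostly did not pass. Of 19 tested adaptors and kinases 4 rose and 2 fell, with a median of 0.04. Ripk3, a kinase of necroptosis, rose by 1.38 ± 0.17 (limma, adjusted p = 0.000304), Ripk1 by 0.64 ± 0.09 (0.000628) and Ripk2, the kinase downstream of Nod1, by 0.80 ± 0.19 (0.0173), with 2 Cre GFP arrays well above background, and Tollip fell by 0.21 (0.0409). Ripk2 passed the filter through active CRHR1 alone, so that its count among the rises is no support. The 3 genes of the IkB kinase complex, Chuk, Ikbkb and Ikbkg, gave 0.28, 0.02 and 0.06 (adjusted p = 0.164, 0.928 and 0.633) and were chosen for mention after their values were seen. Of 10 tested NF-kB inhibitors and deubiquitinases 3 rose and 0 fell, Bcl3 by 1.69 ± 0.26 (0.00115), Nfkbie by 0.81 ± 0.17 (0.00942) and Tnip2 by 0.37 ± 0.08 (0.0118). The slide block kept 2 of the 4 rises and 0 of the 2 falls among adaptors and kinases, ending those of Ripk2 and Tollip, and 2 of the 3 rises among the inhibitors, ending that of Nfkbie. It kept 3 of the 4 rises among the receptors' helpers, ending that of Cd36, and 5 of the 5 among inflammasome effectors. Cd180 and Il18r1, past the filter through active CRHR1 alone, were among those kept, so that their part in these counts is no support. With this block 4.52% of all genes passed. In knockout bulbs 0 genes of these 5 lists passed in limma (adjusted p from 0.0767). The lists are drawn side by side in the plot of the other pathway genes.

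**Figure D5:**
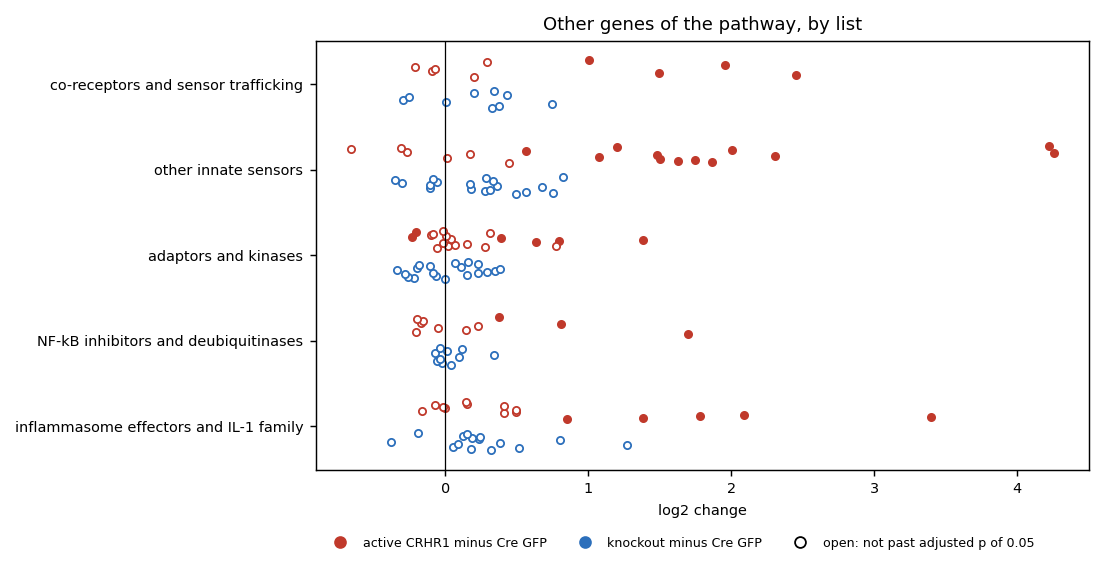
Log2 change of the tested genes of 5 lists outside the 40 members, between active CRHR1 and Cre GFP (red) and knockout and Cre GFP bulbs (blue), with filled points past an adjusted p of 0.05. Filled red points reach 4.26 among the other innate sensors, and all blue points are open.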

How the data were processed

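RNA of whole olfactory bulbs from 15 mice was extracted with TRIzol, treated with DNase I, and 100 ng of each was amplified, labelled with Cy3 and hybridised to single-colour Agilent arrays, per the labels' protocols. The scanner files hold intensity values per spot that the authors deposited as made by Agilent Feature Extraction 10.7.3.1, with probe positions in build mm9, per the file headers. The flags for probes well above background or saturated, and those for control and outlier spots, are other columns of the same deposited files. The authors' series values are a linear ratio, which the comparison with the scanner files showed to be processed signal over the array median, and were used as an alternative. All values are those of the arrays given. The p-values are of limma tests that set group differences against the spread between mice within groups. They do not separate group from slide or, for knockout, from strain.

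Processed signals were log2 transformed and the 75th percentile of each array was subtracted. Spots of a probe were averaged, control and outlier spots left out, and a probe was kept when well above background on at least 4 of 5 arrays of a group, which left 33968 of 55681 probes. The kept probe of highest mean stood for its gene (23430 genes). Names came from the scanner files, updated through RefSeq for 27509 probes. All 15 arrays entered 1 limma 3.58.1 fit (R 4.3.3) with empirical Bayes moderation and Benjamini-Hochberg adjustment over all genes, threshold 0.05, tested on simulated data. A fold against a group well above background on none of its arrays is a lower bound, from the bright group's mean over the dimmest detected signal. Bands of 95% are limma intervals. Tables and plots used Python 3.11.15, pandas 2.3.3 and matplotlib 3.10.9.

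The members, lists and tests were chosen with earlier results of these data known. Values on every array were given for members past the threshold in any comparison, and up to 4 genes of smallest p were named per marker or pathway list. Some genes of these lists that did not pass were named in addition. Alternatives covered normalization, background correction, filter, probe choice, slide, replicate number and omission of each array. Replicate numbers were checked for pairing by correlating deviations from group means, which gave r between -0.23 and 0.356, so they did not pair the mice.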

Additional observations from a re-analysis of the deposited data

Results flagged for a closer look

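In 6 of 98 groups of 5 arrays, 1 member level on 1 array stood apart from the other 4 by Dixon's criterion, which chance alone gives in about 1 in 20 groups. Tlr3 was high on active CRHR1 array 1, at -4.39 against -5.14 to -4.99 on the others. Tlr9 was low on knockout array 1, at 0.91 against 1.19 to 1.29. Irak3 was high on knockout array 1, at -3.04 against -3.47 to -3.36. Tlr13 was high on Cre GFP array 2, at -0.97 against -1.5 to -1.36. On Cre GFP array 5, Nfkb2 was high at -1.35 against -1.49 to -1.46, and Il1b was low at -6.23 against -5.38 to -5.27. The calls of Tlr13, Nfkb2 and Il1b against Cre GFP held without each of these arrays.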

How the results depend on the processing

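Of the settings tried, none reversed a called member. Against Cre GFP the 16 calls in active CRHR1 bulbs became 9 with slide as a fixed block, 3 within the slide that holds both groups and 10 at an adjusted p under 0.01, and the omission of single arrays gave 12 to 18. In knockout bulbs the 1 call became 2 with the slide block, through Tlr3, and 2 in a fit of only the 2 groups, through Nfkb2, with 1 to 2 over the omissions. Between active CRHR1 and knockout the 16 calls became 3 with the slide block and 12 to 19 over the omissions. With the replicate number as a block the counts were 16, 1 and 16, but the numbers did not pair the mice. The other settings kept each count within 1.5 times. Array weights raised the first count to 20 (19 higher, 1 lower), and over all genes gave 5631, 1776 and 6830 calls. Other calls gained against Cre GFP in active CRHR1 bulbs were those of Nfkbiz with normexp correction (adjusted p = 0.0441), Rela with quantile normalization (0.0379) and Tlr3 with slide as a random block (0.0359). Omissions of 1 array added Irak3 (0.0322) and Nfkbiz (0.0396) without Cre GFP array 1, Tlr3 (0.0280) without Cre GFP array 5 and Tnfaip3 (0.0357) without active CRHR1 array 2. With knockout arrays 2 and 5, the least correlated of their group, left out, an alternative chosen after seeing the data, the counts were 16, 1 and 14. Over all genes, omissions gave 1283 to 3697 calls in active CRHR1 against Cre GFP, where all arrays gave 2489, 510 to 969 against 953 in knockout against Cre GFP and 4048 to 7231 against 6576 between active CRHR1 and knockout. The authors' series values gave 1343, 455 and 3740, and moved the share of higher calls to 35.8%, against 59.4%, in knockout against Cre GFP and to 45.6%, against 34.6%, between active CRHR1 and knockout. Without the filter on dim probes Il1a (1.83, adjusted p = 0.0317) and Nod2 (1.70, 0.0473) also passed in limma. The cause of these differences was not tested. Signal over background limits Tnf, Il6, Nlrp3, Tlr3 and Aim2, which were dim in at least 1 group, and normexp correction gave smaller changes for Tlr1, Tlr6, Il1b, Il6, Tnf and Card9.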
